A study of Mus musculus with 4 samples.

Results

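The BTG and TOB family holds antiproliferative proteins that share an N-terminal BTG domain, and the members examined were Btg1, Btg2, Btg3, Tob1 and Tob2. Members were chosen by name: a probe was taken when it was not a control spot and the scanner files listed it under any of these gene names. This gave 6 probes of 5 genes, out of 39429 probes under 30175 names on the whole array. Btg1 had 2 probes and each of the other genes had 1.

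RNA came from NIH-3T3:Per2-Luc, a mouse fibroblast line that carries luciferase driven by the Per2 promoter, and each condition was measured on 1 one-color Agilent array. The cOS-pulse, a short exposure to oxidative stress near the lethal dose, was 5 mM H2O2 for 10 min, and pulsed cells were collected 4 h, 20 h and 32 h later. Control cells received fresh medium with 0 mM H2O2, and their label gives 4 h. With 1 array per condition there was no replicate and no test, which limits the precision of every value below. All comparisons with the control share its single array, so the values of the 3 time points are given side by side and are not independent of each other. No control collected at 20 h or 32 h was analysed here, so the pulse and the time in culture cannot be told apart at those hours.

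The labelled cell type was checked against marker genes. All 8 fibroblast markers, among them Col1a1, Fn1 and Vim, were well above background on every array. Their summed signal, in multiples of the 75th percentile of the array, was 651 in the control and 567, 585 and 596 at 4 h, 20 h and 32 h. The marker with the largest signal, S100a4, gave 283 of this in the control and 294, 273 and 279 later. Each of the 7 other markers was lower at 4 h than in the control. Signals of different probes do not rank genes by abundance. Pdgfrb went from 6.48 in the control to 2.54 at 4 h, and at 20 h Thy1 went from 30.3 to 11.6, Col1a1 from 19.2 to 9.21 and Col3a1 from 1.25 to 0.617. Of the 3 muscle markers none was well above background on any array, nor were Epcam and Cdh1 of epithelium or Ptprc and Emr1 of blood cells. Markers of other cells that did reach this level on all 4 arrays were Pecam1 and Kdr of endothelium, Cd3e of T cells, and Tubb3 and Snap25 of neurons, while Krt5, Cdh5 and Rbfox3 did so on some arrays. Of the endothelial markers, Cdh5 had scaled signals of 0.0575 in the control, then 0.210, 0.0943 and 0.0421 at the later hours, Pecam1 0.0836, then 0.136, 0.0843 and 0.0903, and Kdr 3.08, then 3.94, 4.03 and 3.99. Cdh5 was not well above background at 32 h. The summed signal of the 3 neuron markers was 15.4 in the control and 22.6, 8.10 and 8.46 at the later hours. Nearly all of it was Snap25, at 15.1, then 22.4, 7.55 and 8.18, and the other neuron markers did not follow it. Tubb3 had 0.2155 in the control, then 0.2142, 0.3478 and 0.2812. Rbfox3 had 0.0074, then 0.0066, 0.197 and 0.0078, and was well above background at 20 h only. Any part of these genes in the BTG and TOB values was not tested.

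BTG and TOB proteins slow the passage of cells from G1 to S phase when they are abundant. Through the BTG domain they bind the Cnot7 and Cnot8 nucleases of the CCR4-NOT complex, which shortens the poly(A) tails of messenger RNA, and Tob1 and Tob2 also bind the poly(A)-binding protein. In fibroblasts the BTG genes are known as early responders to growth factors, DNA damage and growth arrest, and Btg2 is a classical target of p53.

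Signals are given as scaled signals, the background-subtracted signal of the probe divided by the 75th percentile of all probes on that array. A log2 ratio is the difference of log2 scaled signals, and the error after ± is propagated from the error that the scanner software gave each spot. That error had a median between 10.04% and 10.07% of the signal on the 4 arrays and covers the spot only. Each member probe had 1 spot, so this error is a figure of the software and not a spread measured between spots. Among probes with 10 spots, the log2 ratio over the control had a median SD between spots of 0.06 at 4 h, 0.05 at 20 h and 0.05 at 32 h. A probe that was not well above background on either array of a comparison has no ratio.

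At 4 h after cOS-pulse all 5 probes with a ratio were higher than in the control, except that Tob1 turned to -0.01 under median scaling and -0.05 under spike-in scaling. At 2 of the 5, Btg1 distal and Btg2, the ratio was at least 2-fold. On the whole array 11.2% of 23813 probes with a ratio were at least 2-fold higher at this hour and 8.18% at least 2-fold lower, and no BTG or TOB probe was in the second group. The median log2 ratio of the 5 probes was 0.96, beside 0.17 over all 20392 measured probes. The higher direction at 4 h held under all 5 other scalings for Btg1, Btg2 and Tob2. At 20 h none of the 5 probes was at least 2-fold higher or lower, where the whole array had 1.37% higher and 3.35% lower, and the medians were 0.26 for the family and -0.0034 for all probes. At 32 h again none of the 5 was past 2-fold either way, beside 2.07% higher and 2.59% lower on the whole array. The medians there were 0.26 for the family and -0.0062 for all probes. These shares are backgrounds for small counts, and nothing particular to the family is read from them.

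The choice of scaling shifts the ratios, by 1 constant per array except under quantile normalization, where the shift differs between probes. Relative to the 75th percentile, the all-probe median at 4 h shifted by -0.28 when no scaling was applied, -0.36 with median scaling, -0.19 with quantile normalization, -0.12 with the percentile of probes detected on all arrays and -0.40 when spike-in probes set the scale. At 20 h the shift was 0.33 when no scaling was applied, 0.20 for the spike-in scale and 0.10 with median scaling, and at 32 h it was 0.18 when no scaling was applied and 0.15 for the spike-in scale. The whole-array split of calls moved with it. At 4 h the probes past 2-fold were 2671 higher and 1947 lower, but 1396 and 3575 with median scaling, 1975 and 2718 with quantile normalization, 2103 and 2398 with the percentile of detected probes, 1322 and 3804 on the spike-in scale, and 1602 and 3110 unscaled. At 20 h they were 301 higher and 737 lower, against 752 and 397 unscaled, 504 and 505 on the spike-in scale, and 391 and 608 for the array median. At 32 h the 452 higher and 565 lower became 675 and 402 unscaled and 637 and 421 on the spike-in scale. Under each of these scalings the same count of BTG and TOB probes, 2, was at least 2-fold higher at 4 h. Changes relative to the all-probe median do not depend on a constant shift of an array. They are therefore given beside the 4 h ratios of the family over the control, and for Tob1 and Tob2 between 4 h and 20 h. Over the control the all-probe medians at 20 h and 32 h were -0.0034 and -0.0062, so there such changes nearly equal the ratios.

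**Figure D1:**
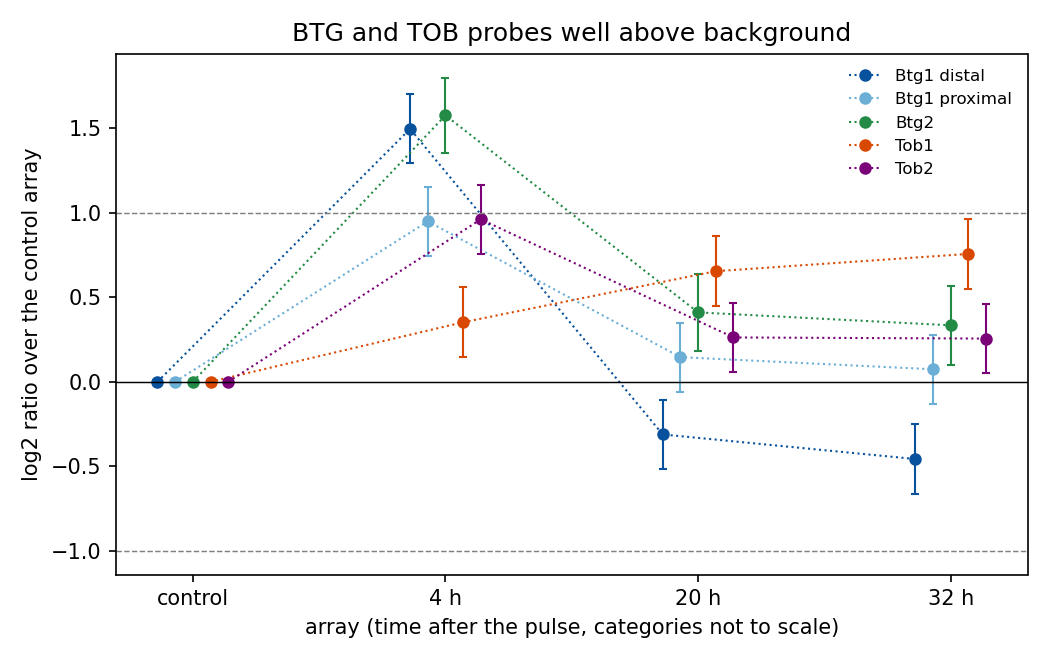
Log2 ratio over the control array (vertical axis) of the 5 BTG and TOB probes that were well above background, by array (horizontal axis, not to scale); each point is 1 probe on 1 array, error bars are the propagated spot error, dotted lines only join points of a probe, and dashed lines mark 2-fold. Btg2 (1.58) and Btg1 distal (1.495) lie above the upper dashed line at 4 h, and the late points of Tob1 (0.65 and 0.76) lie above its 4 h point (0.35), which changes sign under median and spike-in scaling.

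Btg1 and Btg2 are the short members of the family, which bind the CCR4-NOT nucleases and the arginine methyltransferase Prmt1. The probe of Btg2 lay at chr1:135972094-135972153 on the minus strand in the mm9 build named by the scanner files. Its scaled signal was 0.133 in the control, 0.397 at 4 h, 0.177 at 20 h and 0.168 at 32 h. The 4 h array was thus high, the control was lowest, and the 20 h and 32 h arrays lay between them and close together. Over the control this was 2.98-fold higher at 4 h, a log2 ratio of 1.58 ± 0.22, or 1.40 above the all-probe median. The ratio stayed between 1.18 and 1.499 under the 5 other scalings, and 97.4% of measured probes had a lower one. At 20 h and 32 h the log2 ratios were 0.41 ± 0.23 and 0.33 ± 0.23. All 3 ratios were smaller with normexp background correction, at 1.19, 0.16 and 0.18, while the late ratios reached 0.74 and 0.51 unscaled. The normexp setting adds an offset of 50 to each signal, which by itself shrinks the ratios of dim probes. Before scaling, Btg2 read 147 in the control. The spot read 2.99 times the local background in the control and 6.14 times at 4 h. From 4 h to 20 h Btg2 was 2.24-fold lower, a log2 ratio of -1.16 ± 0.21. It was lower under all 5 other scalings, but by less than 2-fold under 3 of them, at -0.70 with median scaling, -0.57 on the spike-in scale and -0.55 unscaled.

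Btg1 was read by 2 probes that start 3287 bases apart on the plus strand of chromosome 10, and both are listed under the same transcript. The proximal probe lay at chr10:96082071-96082130 and the distal probe at chr10:96085358-96085417 (mm9), starting at bases 1633 and 4920 of the transcript. Which exon or part of the message they lie in was not analysed here. The first 30 bases of each are shown to identify the pair, with no base in capitals.
Btg1 proximal: gagtctttcccacaaaccaccatctatttt
Btg1 distal: gcagctttaaatcagtcggatttatgaata

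The distal probe had a scaled signal of 1.96 in the control, 5.54 at 4 h, 1.58 at 20 h and 1.43 at 32 h. It was high at 4 h only, and both late arrays lay below the control. The 4 h array was 2.82-fold above the control, a log2 ratio of 1.495 ± 0.20 that ranged from 1.10 to 1.38 under the 5 other scalings and lay 1.32 above the all-probe median. At 20 h the log2 ratio was -0.31 ± 0.20 and at 32 h -0.46 ± 0.20. The lower value at 32 h kept its sign under all 5 other scalings. That at 20 h shrank to -0.11 on the spike-in scale, within its spot error, and turned to 0.02 without scaling. From 4 h to 20 h the distal probe was 3.50-fold lower, with a log2 ratio of -1.81 ± 0.20, which was -1.21 on the spike-in scale and -1.19 unscaled.

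The proximal probe had a scaled signal of 89.1 in the control, 172 at 4 h, 98.6 at 20 h and 93.8 at 32 h. It too was high at 4 h, but its late arrays lay at the level of the control within the spot error. It was 1.93-fold higher at 4 h, just under 2-fold, with a log2 ratio of 0.95 ± 0.20, or 0.78 above the all-probe median. This ratio ranged from 0.51 under quantile normalization to 0.82 under the percentile of detected probes. The log2 ratios at 20 h and 32 h were 0.15 ± 0.20 and 0.07 ± 0.20, and they reached 0.48 and 0.25 without scaling.

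The difference between the Btg1 probes within an array is not altered by a constant scaling. Distal minus proximal, this log2 difference changed from the control by 0.55 ± 0.29 at 4 h, -0.46 ± 0.29 at 20 h and -0.53 ± 0.29 at 32 h. The distal probe thus gained on the proximal probe at 4 h and lost against it at both late hours, so the probes of Btg1 changed unequally. With normexp the changes were 0.56, -0.38 and -0.50, and quantile normalization, which does not shift both probes equally, gave 0.87, -0.62 and -0.70. Across the 4 arrays the difference spanned 1.08 on the log2 scale, or 2.11-fold. Among 2852 genes with exactly 2 probes on 1 chromosome, both well above background on all arrays, the median span was 0.34, and 339 genes spanned at least as much as Btg1. A span of this size was thus seen in other genes as well, and its cause was not tested.

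**Figure D2:**
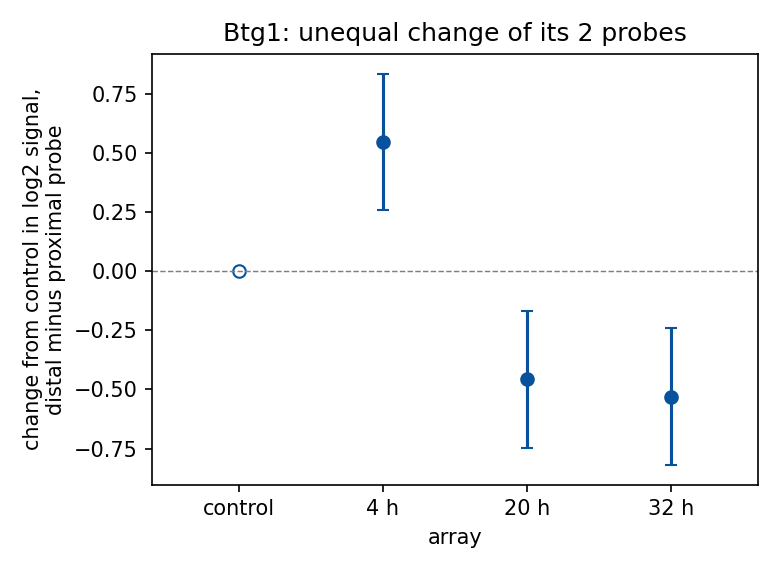
Change from the control array in the log2 difference between the distal and the proximal Btg1 probe (vertical axis) on each array (horizontal axis); the open point is the control, set to 0, and error bars are the propagated error of the 4 spots behind each change. The change was 0.55 at 4 h, -0.46 at 20 h and -0.53 at 32 h.

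Tob1 and Tob2 are the longer members, which carry the additional region that binds poly(A)-binding protein. Tob1 is also known to bind Smad proteins in bone-forming cells. Its probe lay at chr11:94075956-94076015 on the plus strand (mm9) and had a scaled signal of 0.452 in the control, 0.577 at 4 h, 0.712 at 20 h and 0.764 at 32 h. On this scale the control was lowest, the 4 h array lay between and the late arrays were highest. The other members with a ratio were instead highest at 4 h. The late arrays did not differ from each other beyond the spot error. The step from the control to 4 h was 0.35 ± 0.21 on the log2 scale, 0.18 above the all-probe median, and its sign was not kept under median or spike-in scaling. At 20 h Tob1 was 1.57-fold and at 32 h 1.69-fold above the control, with log2 ratios of 0.65 ± 0.21 and 0.76 ± 0.21. Both stayed higher under all 5 other scalings, from 0.64 to 0.99 at 20 h and from 0.75 to 0.93 at 32 h. Although below 2-fold, these ratios exceeded those of 97.4% of measured probes at 20 h and 97.7% at 32 h.

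The probe of Tob2 lay at chr15:81679488-81679547 on the minus strand (mm9). Its scaled signal was 0.699 in the control, 1.36 at 4 h, 0.839 at 20 h and 0.835 at 32 h. The 4 h array was high and the late arrays were nearly equal, slightly above the control. Tob2 was 1.95-fold higher at 4 h, just under 2-fold, with a log2 ratio of 0.96 ± 0.20 that ranged from 0.56 to 0.96 under the 5 other scalings and lay 0.79 above the all-probe median. The log2 ratios at 20 h and 32 h were 0.26 ± 0.20 and 0.26 ± 0.20, little more than the spot error, and reached 0.59 and 0.43 unscaled.

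Btg3, a member known to bind the transcription factor E2f1, could not be followed. Its probe had background-subtracted signals of 10.9 in the control and 7.59, 10.3 and 13.1 at 4 h, 20 h and 32 h, with spot errors of 10.8, 7.55, 10.3 and 13.1. Each signal was as small as its error, and none was well above background, so no ratio was taken. The scanner files place this probe at chr17:50839065-50839124 (mm9) and list it for the Btg3 transcript and also for that of Gm7334, which RefSeq gives as a transcribed pseudogene. RefSeq has the start sites of Btg3 on chromosome 16 (GRCm38.p6), so the placement in the scanner files is not at the Btg3 gene, and the probe could not be mapped again here. A low reading of this probe says nothing of Btg3 messages that it may not match. Its first 30 bases are shown for that reason, with no base in capitals.
Btg3: gggcgatgtgttctagcacctttgagcatt

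The time points after the pulse were also compared directly. Between 4 h and 20 h, Btg1 proximal had a log2 ratio of -0.80 ± 0.20 and Tob2 one of -0.70 ± 0.20, lower like Btg2 and Btg1 distal, while Tob1 was at 0.30 ± 0.21. Each of these directions held under all 5 other scalings, but Tob2 shrank to -0.085 unscaled and -0.10 on the spike-in scale, and Btg1 proximal to -0.19 unscaled, -0.20 with quantile normalization and -0.21 on the spike-in scale, within or near the spot error. Tob1 in turn grew to 0.77 with median scaling, 0.90 on the spike-in scale and 0.91 unscaled. The all-probe median of this comparison was -0.20, so that relative to it Tob1 was 0.50 higher and Tob2 0.50 lower. Between 32 h and 20 h, hours on opposite sides of the circadian cycle, the 5 probes had log2 ratios of 20 h over 32 h from -0.10 for Tob1 to 0.15 for Btg1 distal. With the 75th percentile scaling no probe differed between these hours by more than its spot error. Without scaling Btg1 distal (0.30), Btg2 (0.23) and Btg1 proximal (0.23) passed theirs and the sign of Tob1 turned, to 0.05, and Btg1 distal (0.22) passed it with median scaling too.

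The members were compared with each other by the shape of their profiles, as the Euclidean distance of the 4 log2 signals after each profile was centred on its mean. Btg1 proximal and Tob2 lay closest, at 0.15, and Btg1 distal and Tob1 lay furthest apart, at 1.86 (log2 units). The pair of Btg1 probes was at 0.86, so Btg1 proximal was nearer to Tob2 and to Btg2 (0.45) than to the other probe of its own gene. Among 14929 named probes that were well above background on all 4 arrays, the profiles nearest to Btg1 proximal were those of Prdm4, Bbip1 and Ctdp1, at distances of 0.011, 0.012 and 0.016. Nearest to Btg2 were Tgif1 (0.031), the p53 regulator Mdm2 (0.033) and Sgms2 (0.049). Nearest to Tob1 were the histone gene Hist2h2aa1 (0.024), Arhgap26 (0.063) and Dbi (0.068), and nearest to Tob2 were Tbcel (0.022), Cbr3 (0.028) and Cep76 (0.028). These are likenesses over 4 arrays, and nothing is said of shared function or control.

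The deadenylation machinery, which the BTG domain binds, was represented by 16 genes: CCR4-NOT subunits, the Pan2 and Pan3 complex, Parn and poly(A)-binding proteins. This list and those of the next paragraphs were chosen with earlier results of these data known. Their counts and medians are therefore descriptions, and nothing particular to a list is read from them. At 4 h 1 of 21 probes with a ratio was at least 2-fold higher and 1 at least 2-fold lower, where the whole array had 11.2% and 8.18%, and the median of the 20 measured log2 ratios was 0.19, beside 0.17 over all probes. The median turned to -0.21 under the lowest of the 5 other scalings. The named genes with the largest measured ratios were the poly(A)-specific ribonuclease Parn at -1.10 ± 0.21, Pabpc4 at 0.97 ± 0.20, Pan3 at 0.78 ± 0.20 and the deadenylase Cnot7 at 0.75 ± 0.21. Each kept its sign under the 5 other scalings. The probe past 2-fold upwards was a Cnot2 probe at least 2.37-fold higher, a bound because it was not well above background in the control. Its log2 bound of 1.25 fell to between 0.85 and 1.12 under the 5 other scalings and stayed past 2-fold under 1 of them. The other Cnot2 probes had ratios of 0.13 and 0.43, the first turning sign under 3 of the 5 other scalings. At 20 h and 32 h none of 20 probes was past 2-fold, where the whole array had 1.37% higher and 3.35% lower at 20 h and 2.07% and 2.59% at 32 h. The medians were -0.03 and -0.12, beside -0.0034 and -0.0062 over all probes, and turned to 0.30 and 0.06 under the highest of the 5 other scalings.

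RNA-binding proteins that recruit deadenylases to messages were represented by 9 genes with 10 probes, all with a ratio. At 4 h 3 were at least 2-fold higher and 1 lower, where the whole array had 11.2% higher and 8.18% lower. The median log2 ratio was 0.78, beside 0.17 over all probes, and lay between 0.38 and 0.66 under the 5 other scalings. Higher were Cpeb4 at 1.64 ± 0.28, Zfp36, which binds AU-rich elements, at 1.57 ± 0.21, and Cpeb2 at 1.22 ± 0.30, and lower was Cpeb1 at -1.38 ± 0.32. Cpeb2 stayed past 2-fold under 1 of the 5 other scalings, with a lowest value of 0.82, so that 2 probes were higher under the others. Relatives thus moved in opposite directions within the CPEB family, under each of the 5 other scalings as well. At 20 h and 32 h none of the 10 probes was past 2-fold, beside 1.37% higher and 3.35% lower on the whole array at 20 h and 2.07% and 2.59% at 32 h. The medians were 0.06 and 0.18, beside -0.0034 and -0.0062 over all probes, and reached 0.39 and 0.36 under the highest of the 5 other scalings.

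Partners of the family and growth control genes were represented by 11 genes with 20 probes. At 4 h 6 of 19 with a ratio were at least 2-fold higher and 1 at least 2-fold lower, where the whole array had 11.2% higher and 8.18% lower, and 3 of the 6 were probes of Cdkn1a. The median was 0.59, beside 0.17 over all probes, and lay between 0.19 and 0.47 under the 5 other scalings. The counts became 4 higher and 3 lower with median scaling, on the spike-in scale and unscaled, 4 and 1 with quantile normalization, and 5 and 1 with the percentile of detected probes. A Foxo3 probe (1.11) was past 2-fold under none of these and a Smad5 probe under 1, while E2f1 (-0.84) and a Foxo1 probe (-0.79) passed 2-fold downwards under 3. Foxo3, E2f1 and Foxo1 are named here because of these changes, after their values were seen. The other Foxo3 probe was at 0.51 ± 0.35 and the other Foxo1 probe at -0.57 ± 0.21, neither past 2-fold. The p53 targets Cdkn1a, an inhibitor of cyclin-dependent kinases, and Mdm2 were higher, at 3.57 ± 0.20 for the Cdkn1a probe with the largest ratio and 1.61 ± 0.20 for Mdm2. The G1 cyclin gene Ccnd1 was lower, at -1.49 ± 0.20. Smad5 had 1 probe at 1.15 ± 0.26 and another at -0.19 ± 0.20, so its probes disagreed. Ccnd1 was also past 2-fold at the late hours, at -1.17 and -1.30, though at 20 h it reached only -0.84 unscaled and was past 2-fold under 3 of the 5 other scalings. Of 3 Cdkn1a probes, the first stayed higher, at 1.30 and 1.32, and so did a second, at least 2.45-fold at 20 h and at least 2.61-fold at 32 h, bounds because it was not well above background in the control. The other, which stood at 1.97 at 4 h, was at -0.63 and -0.49. At 20 h 2 of 19 probes were at least 2-fold higher and 1 lower, beside 1.37% and 3.35% of the whole array, and at 32 h 3 of 20 were higher and 1 lower, beside 2.07% and 2.59%. Cdkn1a accounted for both higher probes at 20 h and for 2 of the 3 at 32 h. The other was a Smad1 probe, named here after its values were seen, at least 3.81-fold higher at 32 h and past 2-fold under all 5 other scalings. This is a bound, as the probe was not well above background in the control, and the other Smad1 probes were at -0.21 and -0.15, the latter turning to 0.03 unscaled, so the probes of Smad1 disagreed. The medians were -0.04 and -0.15, and turned to 0.29 and 0.03 under the highest of the 5 other scalings. Apart from that Smad1 value, the signs of the ratios named in this paragraph held under the 5 other scalings.

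**Figure D3:**
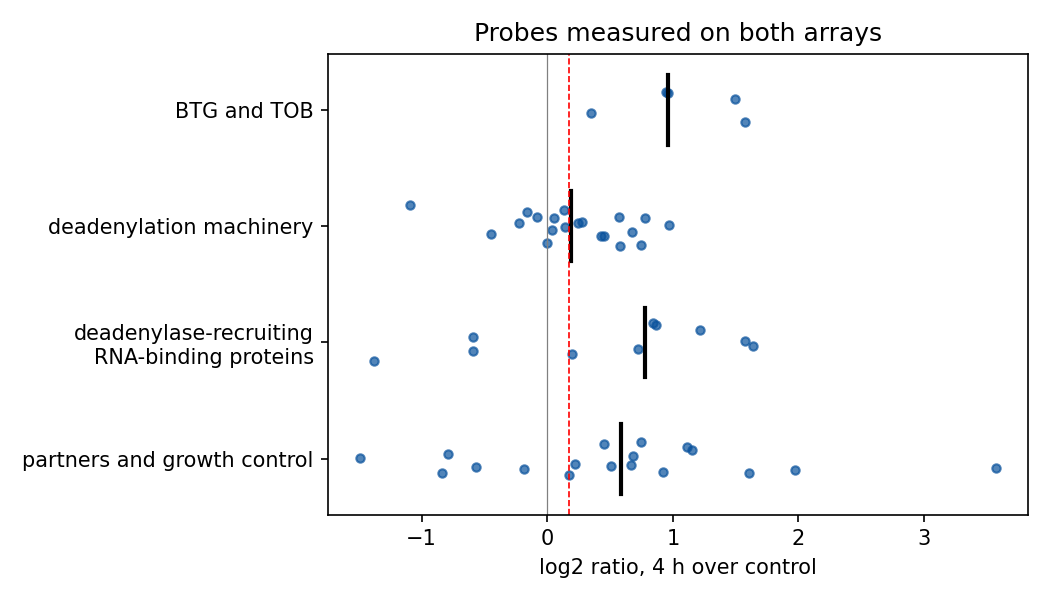
Log2 ratio of 4 h over control (horizontal axis) of each probe measured on both arrays, for the BTG and TOB family and the 3 lists of related genes (vertical axis; points are spread within a row for legibility). Black bars are medians of the points, the grey line is 0 and the red dashed line is the median of all measured probes (0.17). The BTG and TOB points run from 0.35, a Tob1 value that changes sign under median and spike-in scaling, to 1.58. The lists were chosen with earlier results of these data known.

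Promoters of the 5 genes were examined because 4 of them were higher at 4 h, Tob1 with the exception under scaling given above. The 250 bases before each start site were taken from RefSeq (GRCm38.p6), which gave 6 windows for the 5 genes, with a pair for Btg3. Both strands were searched for the antioxidant response element (TGACNNNGC), the heat shock element core (GAANNTTC), the E-box (CACGTG), the cAMP response element (TGACGTCA), the FOXO site (TGTTTAC), the NF-kappa-B site (GGGNNTTCC) and the p53 half-site. Of 32841 promoter windows of this length, 10.2%, 6.70%, 6.02%, 1.55%, 3.17%, 4.98% and 7.13% held a match, in that order. In the family, Btg2 held a cAMP response element 166 to 159 bases before its start, Btg1 a FOXO site at 204 to 198, and a Btg3 window an NF-kappa-B site on the other strand at 74 to 66. No match overlapped another, and the windows of Tob1 and Tob2 held none of these letters. A match is a description of the sequence and not a bound site. Several motifs were searched in each window, so nothing particular to the family is read from these matches.

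The windows of the genes with a probe past 2-fold at 4 h are shown, Btg1 at chr10:96616751-96617000 on the plus strand and Btg2 at chr1:134079156-134079405 on the minus strand. They are written along the strand of the gene, and capitals mark the FOXO site of Btg1 and the cAMP response element of Btg2.
Btg1: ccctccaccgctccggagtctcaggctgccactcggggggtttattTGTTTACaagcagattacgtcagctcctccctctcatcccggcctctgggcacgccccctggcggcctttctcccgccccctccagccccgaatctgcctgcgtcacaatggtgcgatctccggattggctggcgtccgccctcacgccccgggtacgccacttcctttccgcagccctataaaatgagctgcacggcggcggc
Btg2: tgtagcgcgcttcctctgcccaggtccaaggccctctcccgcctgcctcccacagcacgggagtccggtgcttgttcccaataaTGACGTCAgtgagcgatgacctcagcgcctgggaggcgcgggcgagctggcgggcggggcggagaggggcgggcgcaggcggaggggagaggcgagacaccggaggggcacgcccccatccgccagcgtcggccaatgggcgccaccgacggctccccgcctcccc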

How the data were processed

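RNA of control and cOS-pulsed NIH-3T3:Per2-Luc cells was hybridized to 4 one-color Agilent arrays. The authors deposited spot intensities from Agilent Feature Extraction 10.7.3.1, from which the scanner software had subtracted background, and a table in which the same intensity values were divided by 1 constant per array (other units were flags and annotation, per the file headers). The columns of that table had medians of 0.0590, 0.0757, 0.0546 and 0.0588 (control, 4 h, 20 h, 32 h) on a linear scale. From the deposited intensities, log2 signals were averaged per probe over unflagged spots and lowered by the 75th percentile of all 39429 probes on the array. Detection required the software's well-above-background flag in at least 50% of a probe's spots, which held for 53.4%, 59.1%, 55.2% and 52.7% of probes, and no spot was saturated. Ratios are measured values if the probe was detected on both arrays. If it was detected on 1, the ratio is a bound ("at least N-fold"), set against the dim array's lowest detected signal or the probe's own signal there, whichever was higher.

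No test was run, since each condition had 1 array. The threshold was 2-fold. Named genes were every member probe, the 3 nearest profiles of other genes for the brightest detected probe of each member, and up to 4 genes per list with the largest measured ratio at 4 h in either direction. In the lists, Cnot2, Foxo3, E2f1, Foxo1 and Smad1 were named outside this rule, after their values were seen. Members and lists were chosen with earlier results of these data known. Of the names asked for in the lists, Cnot9 was found as Rqcd1 and Cnot11 as 2410015M20Rik. Probe coordinates are those of the files (mm9), and RefSeq names and promoters are of GRCm38.p6. The alternatives were 5 other scalings (median, quantile, 75th percentile of probes detected on all arrays, 8 spike-in probes, none), normexp with an offset of 50 (limma 3.58.1, R 4.3.3), detection on both arrays, no detection filter, another detection flag, flagged spots kept, the deposited table, and thresholds of 1.5-fold and 3-fold. A marker withheld for evaluation is not reported here. The counting step was tested on simulated data. Python 3.11.15, numpy 2.4.6, pandas 2.3.3 and matplotlib 3.10.9 were used.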

Additional observations from a re-analysis of the deposited data

Results flagged for a closer look

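The distal Btg1 probe moved in opposite directions at different hours after cOS-pulse, with a log2 ratio over the control of 1.495 at 4 h but -0.31 at 20 h and -0.46 at 32 h, each beyond its spot error. The difference between the hours was not tested. The 20 h value shrank to -0.11 on the spike-in scale, within its spot error, and turned to 0.02 without scaling.

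A signal was also read at Btg4, a family member outside the list of genes examined. Its probe had a background-subtracted intensity, not scaled, of 33.7 at 4 h and was well above background on that array, while it read 17.1 in the control, 8.87 at 20 h and 10.8 at 32 h and was not well above background there. The 4 h signal was close to the lowest signals that counted as well above background, and it was a single spot. In the control the spot already carried the software's flag for a positive and significant signal, with an error of 9.35. The ratio of 4 h over the control was only a bound, at least 1.002-fold, so no increase was established.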

How the results depend on the processing

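Across the 5 other scalings, normexp, the other detection rules, flagged spots kept and the deposited table, the counts of BTG and TOB probes past 2-fold stayed at 2 higher at 4 h and 0 in the other directions and hours. They moved with the threshold. At 1.5-fold the counts of higher probes were 4 at 4 h, 1 at 20 h and 1 at 32 h, where 24.7%, 4.51% and 5.82% of all probes with a ratio were higher, and at 3-fold the count at 4 h was 0, beside 4.3% of all probes, which follows from the threshold itself. The median log2 ratio at 4 h, 0.96, was 0.68 unscaled, 0.60 with median scaling and 0.56 on the spike-in scale, and that at 20 h, 0.26, was 0.59 unscaled. These shifts are those of the whole array. Of 275 values of single-probe ratios under 11 alternatives, 236 moved by less than the spot error and 36 moved further with the same sign or from a ratio within its error, 34 of them under another scaling. The other 3 changed sign from a ratio beyond its spot error: Tob1 at 4 h, to -0.0095 with median scaling and -0.047 on the spike-in scale, and Btg1 distal at 20 h, to 0.020 unscaled. The other detection rules, flagged spots kept and the deposited table could hardly move these ratios. The probes with a ratio were well above background and unflagged on every array, and that table has nearly the same scaling. Much of the 236 therefore says little about how stable the ratios are.

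The limits are those of 1 array per condition and of 1 control labelled 4 h. The spot error covers neither the culture nor the labelling of the RNA. Signal over background limits Btg2 and leaves Btg3 without a ratio. No paired analysis was possible because each condition had 1 array.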

Other observations

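RefSeq names a pair of further Btg1-like genes, Btg1b and Btg1c, which the array lists under older names. The probe of Btg1c (listed as 4930430D24Rik) was well above background on all 4 arrays, with log2 ratios over the control of 0.92 at 4 h, 0.03 at 20 h and -0.07 at 32 h. The constant shifts between scalings apply to these ratios too, such as -0.40 at 4 h on the spike-in scale. At 32 h the shifts of 0.18 unscaled and 0.15 on the spike-in scale exceed the ratio, so its sign depends on the scaling. At best placement without gaps the Btg1c probe matched the Btg1 probes at 22 (proximal) and 23 (distal) of 60 bases, and the Btg1b probe at 21 and 22. No such match is given for unrelated probes, and whether these probes also read Btg1 messages was not tested. The probe of Btg1b (listed as 4930525M21Rik) was well above background at 20 h only, with a background-subtracted intensity, not scaled, of 71.1, beside 14.5 in the control, 24.4 at 4 h and 10.4 at 32 h.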
